A study of Homo sapiens with 3 samples.

Results

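The genes of the proteasome were followed in HCT-116, a line of human colorectal cancer cells, in which SCD1, the enzyme that puts a double bond into saturated fatty acids, was inhibited or lost. Members were genes whose symbol starts with PSMA, PSMB, PSMC, PSMD, PSME, PSMF or PSMG followed by a number, read by probe sets that the platform annotation assigns to exactly 1 gene. Of 19775 genes named in this way, 50 were members, read by 97 probe sets. They comprised 42 subunits, activators and assembly factors of the proteasome and 8 further genes that share only the start of the name. Dim probe sets were dropped, those whose log2 signal, averaged over the 3 arrays, fell short of the array-wide median (a signal of 56.6). This left 12321 genes of the array and 44 members, 40 of them subunits, activators or assembly factors.

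There were 3 arrays, 1 per condition. The conditions were SCD1-WT cells with 100 nM T-3764518, an SCD1 inhibitor, for 24 h, SCD1-KO cells with DMSO, and SCD1-WT cells with DMSO, the vehicle, for 24 h. All shared the HCT-116 background, and the SCD1-KO cells were selected as clones in which CRISPR-Cas9 had deleted part of the SCD1 locus, with the number of clones on the array not stated. The dose came from the methods of the study, and so did the vehicle of the SCD1-KO cells, for which the labels name neither vehicle nor time. With 1 array per condition no difference could be checked against replicates and none was tested, and the number of arrays limits the precision. Ratios are given as log2 of T-3764518 over DMSO, of SCD1-KO over DMSO, and of T-3764518 over SCD1-KO. The first and second share the DMSO array, so a high or low value there moves both. The value of a gene is the median over its kept probe sets, and a gene is called where it differs by 1.5-fold. The SD between probe sets of 1 gene served as a measure of technical spread. In the dimmest quintile of genes it was 0.59 for T-3764518 over DMSO and 0.63 for SCD1-KO over DMSO, and in the brightest quintile 0.23 for both.

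The proteasome degrades proteins tagged with ubiquitin. Its 20S core is a barrel of stacked rings, in which alpha subunits form the outer rings and gate the entry, and beta subunits form the inner rings and hold the proteolytic sites. The 19S regulatory particle caps the barrel, where its ATPases unfold substrates and its non-ATPase subunits bind and remove ubiquitin. In cells exposed to interferon the catalytic subunits PSMB8, PSMB9 and PSMB10 replace the constitutive ones to form the immunoproteasome, which favours peptides that suit presentation on MHC class I. Dedicated chaperones assemble both particles, and the transcription factor NFE2L1 raises subunit genes together when proteasome activity is low.

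Promoter sequence of RefSeq, from 250 bases before to 50 bases after the gene start in GRCh38.p14, was searched for 4 motifs linked to proteasome and interferon control, and windows chosen after the values were seen are shown for the immunoproteasome subunits PSMB9 and PSMB10, the activators PSME1 and PSME4, and PSMD12 and PSMD14 of the 19S particle. The sequences below run 5′ to 3′ on the strand of the gene, with the motif in capitals. Up to 20 bases are shown on either side, cut at the gene start, which shortens the PSMB10 window. Distances are counted from the motif to the gene start. The antioxidant response element core, TGACNNNGC, is the motif at which NFE2L1 acts, GAAANNGAA is the core of the interferon-stimulated response element, and CCAAT is the box bound by NF-Y. The PSMB10 motif lies 21 bases, the PSMB9 motif 148, the PSME1 motif 86, the PSME4 motif 34, the PSMD12 motif 165 and the PSMD14 motif 48 bases before the start, and capitals that read otherwise are the motif on the opposite strand. A second CCAAT match in PSMD14, on the opposite strand 45 bases before the start, overlaps the one shown and is not marked. No annotated gene overlaps these windows.
PSMB10, chr16:67936851-67936891, minus strand, GAAANNGAA: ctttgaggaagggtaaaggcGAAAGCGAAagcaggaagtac
PSMB9, chr6:32854024-32854072, plus strand, TGACNNNGC: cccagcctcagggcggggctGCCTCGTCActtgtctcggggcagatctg
PSME1, chr14:24136088-24136136, plus strand, TGACNNNGC: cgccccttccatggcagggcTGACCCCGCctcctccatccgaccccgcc
PSME4, chr2:53970999-53971047, minus strand, TGACNNNGC: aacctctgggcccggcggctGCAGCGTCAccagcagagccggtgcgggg
PSMD12, chr17:67366714-67366762, minus strand, TGACNNNGC: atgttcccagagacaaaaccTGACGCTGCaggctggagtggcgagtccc
PSMD14, chr2:161308357-161308401, plus strand, CCAAT: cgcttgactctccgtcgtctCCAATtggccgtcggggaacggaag

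Most of the proteasome stayed close to its DMSO level in both states. The median of the 40 subunits, activators and assembly factors was a log2 ratio of 0.00 under T-3764518 and 0.08 in the SCD1-KO line, against -0.09 under T-3764518 and -0.01 in SCD1-KO over all 12321 genes. Scaling the arrays to 1 median, in place of the trimmed mean of MAS5, raised the median of all genes. The rise was 0.28 under T-3764518 and 0.14 in the SCD1-KO line. The subunits moved with it, to a median of 0.28 under T-3764518. Of the 44 tested members, 3 were then 1.5-fold higher and 1 lower under T-3764518, and 5 were higher in the SCD1-KO line. The share of all genes called under that scaling was not counted, so these counts are not read as a result about the members. Signs of small ratios thus hold for the deposited scaling only. Under T-3764518, 33 of 40 lay within a log2 ratio of 0.32 of DMSO in either direction, or 82.5%, against 57.2% of all genes and 69.5% of the genes in the brightest quintile. In the SCD1-KO line 26 of 40 did, or 65%, against 54.5% of all genes and 65.9% of the brightest quintile. Brightness belongs beside these shares, since 27 of the 40 were in the brightest quintile, where probe sets spread least, and its part in them was not tested.

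Under T-3764518, 0 of 40 were 1.5-fold higher, where 6.62% of all genes were, and 3 of 40 were 1.5-fold lower, where 12.3% were. The 3 were PSMA5, PSMB9 and PSMG4. In the SCD1-KO line 2 of 40 were 1.5-fold higher, PSMB10 and PSMB7, against 9.95% of all genes, and 0 of 40 were 1.5-fold lower, against 11.4%. No tested member was 2-fold higher or lower in either state, whereas 2.18% of all genes were 2-fold higher and 3.30% 2-fold lower under T-3764518, and 3.12% and 3.93% in the SCD1-KO line. Above 0 were 20 of 40 under T-3764518, against 41.0% of all genes, and 26 of 40 in the SCD1-KO line, against 48.9%. Of the 27 members in the brightest quintile, 0 were 1.5-fold apart in either state, where 9.90% of the genes of that quintile were under T-3764518 and 11.6% in the SCD1-KO line. These shares describe the list and carry no test.

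**Figure D1:**
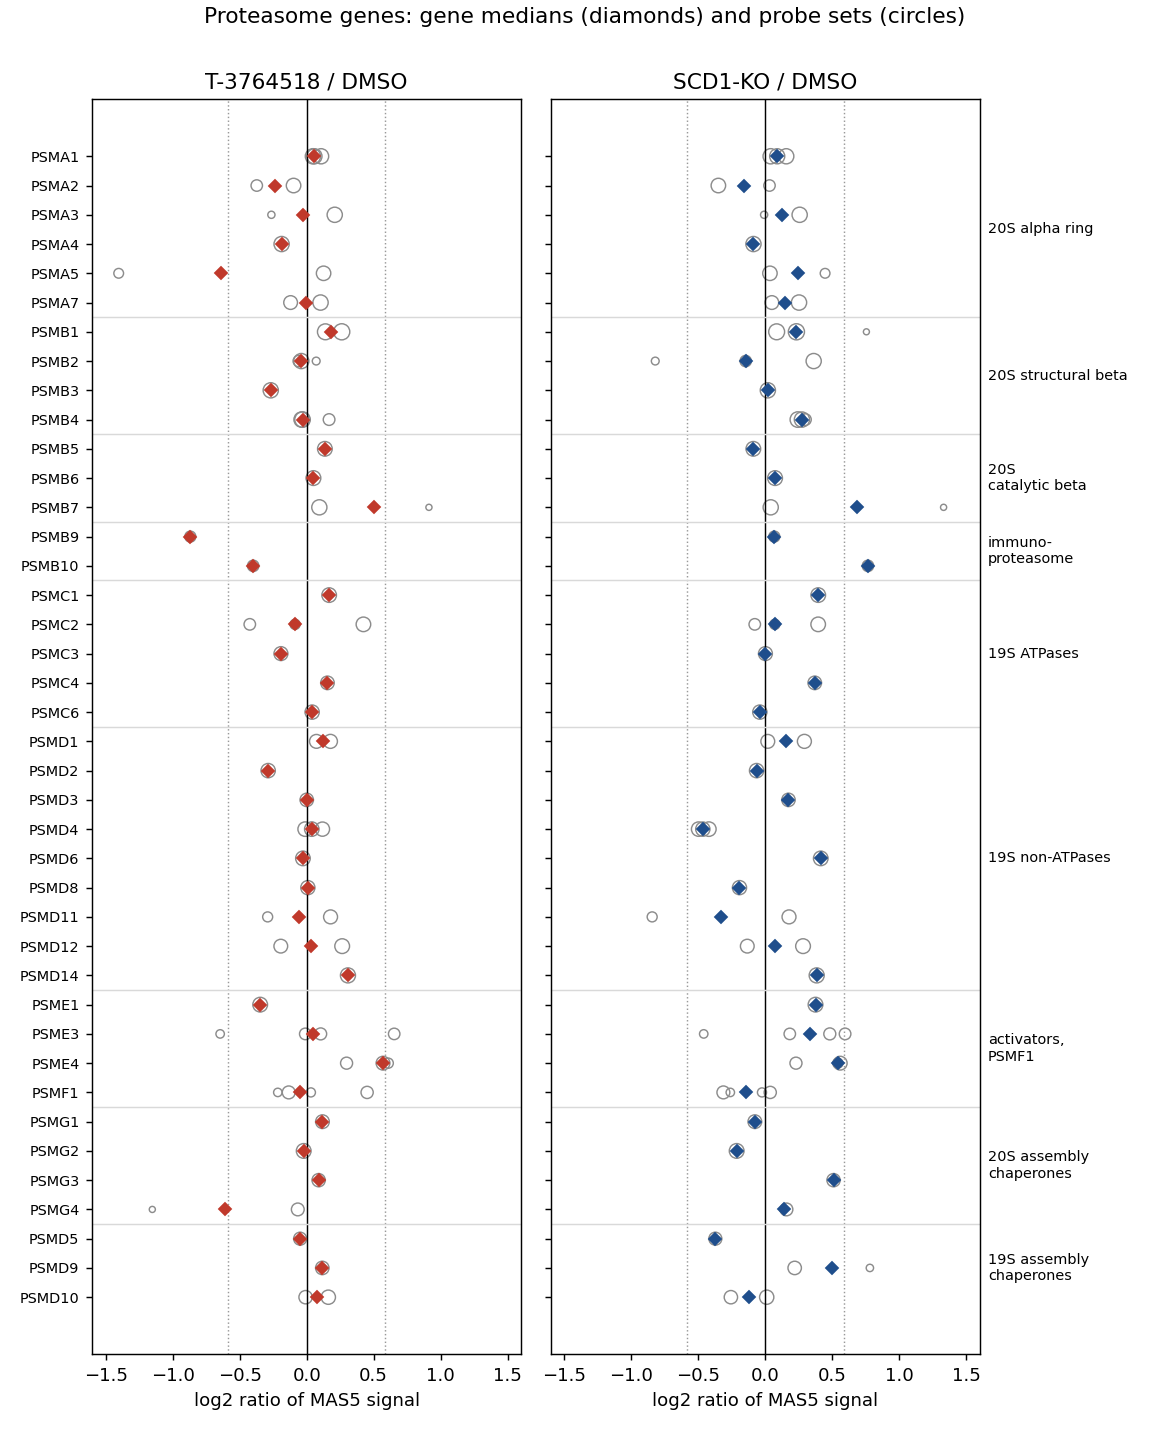
Log2 ratio to SCD1-WT cells with DMSO (horizontal axis) of each of the 40 tested subunits, activators and assembly factors (rows, by class), for T-3764518 and SCD1-KO cells, 1 array each. Diamonds are gene medians, open circles are single probe sets with size growing with signal, and dotted lines lie at 1.5-fold. Most diamonds lie between the dotted lines, with PSMA5, PSMB9 and PSMG4 beyond the lower one under T-3764518 and PSMB10 and PSMB7 beyond the upper one in the SCD1-KO line. Circles of some other genes also lie beyond the lines, such as PSME3 at -0.65 and 0.65 under T-3764518.

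Several of the calls rested on a dim probe set. PSMA5, an alpha ring subunit, had a bright probe set at signals of 5971 under T-3764518, 5600 in the SCD1-KO line and 5470 with DMSO, and a dim one at 131.2 under T-3764518, 472.4 in SCD1-KO and 346.9 with DMSO. Its log2 ratio for T-3764518 was -0.64, the median of 0.13 and -1.40. PSMG4, a chaperone of 20S assembly, had 1601 under T-3764518, 1869 in SCD1-KO and 1676 with DMSO on its bright probe set, and 34.7 under T-3764518, 84.2 in SCD1-KO and 77.1 with DMSO on the dim one, which gave -0.07, -1.15 and a median of -0.61. PSMB7, the subunit with trypsin-like activity, had 10556 under T-3764518, 10159 in the SCD1-KO line and 9885 with DMSO on its bright probe set, and 69.1 under T-3764518, 92.3 in SCD1-KO and 36.7 with DMSO on its dim one. With the brightest probe set alone, PSMB9 was the only 1.5-fold lower member under T-3764518, against 12.2% of all genes, and PSMB10 the only 1.5-fold higher one in the SCD1-KO line, against 10.4%. Across the 20 members with more than 1 kept probe set, these lay on both sides of 0 in 12 genes under T-3764518 and in 9 in the SCD1-KO line.

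On their bright probe sets the constitutive catalytic subunits were close to their DMSO level. Each of the tested immunoproteasome subunits was 1.5-fold away from DMSO in 1 state, PSMB9 under T-3764518 and PSMB10 in the SCD1-KO line. By brightest probe set 12.2% of all genes were 1.5-fold lower under T-3764518 and 10.4% higher in SCD1-KO. PSMB9 and PSMB10 were also dimmer, at mean signals of 572 and 712, against 6730 for PSMB5 and 7351 for PSMB6. In their quintiles the SD between probe sets was 0.36 under T-3764518 (PSMB9) and 0.30 in SCD1-KO (PSMB10), against 0.23 in the brightest. The part of brightness in this contrast was not tested. PSMB5, which carries the chymotrypsin-like activity, had signals of 7318 under T-3764518, 6255 in the SCD1-KO line and 6659 with DMSO, log2 ratios of 0.14 under T-3764518 and -0.09 in SCD1-KO. PSMB6, with the caspase-like activity, had 7401 under T-3764518, 7511 in SCD1-KO and 7145 with DMSO, log2 ratios of 0.05 under T-3764518 and 0.07 in SCD1-KO. PSMB7 was at 0.09 under T-3764518 and 0.04 in SCD1-KO on its bright probe set, and at 0.91 under T-3764518 and 1.33 in SCD1-KO on the dim one, so that its median of 0.50 under T-3764518 and 0.68 in SCD1-KO passed 1.5-fold in the SCD1-KO line alone. The bright signals of all of them varied little between the arrays.

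PSMB9, which takes the place of PSMB6 in the immunoproteasome, had signals of 377.2 under T-3764518, 720.8 in the SCD1-KO line and 688.5 with DMSO. It was 1.83-fold lower under T-3764518, while SCD1-KO cells were near DMSO at a log2 ratio of 0.07. PSMB10, which takes the place of PSMB7, had 496.2 under T-3764518, 1112 in the SCD1-KO line and 654.3 with DMSO. It was 1.70-fold higher in the SCD1-KO line and 1.32-fold lower under T-3764518. Both genes were therefore lower under T-3764518 than in the SCD1-KO line, 1.91-fold for PSMB9 and 2.24-fold for PSMB10. Each was read by 1 kept probe set, so no second probe set checks it. PSMB8, the partner that takes the place of PSMB5, had signals of 3.30 under T-3764518, 2.26 in SCD1-KO and 3.0 with DMSO, under the filter, and gets no ratio.

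**Figure D2:**
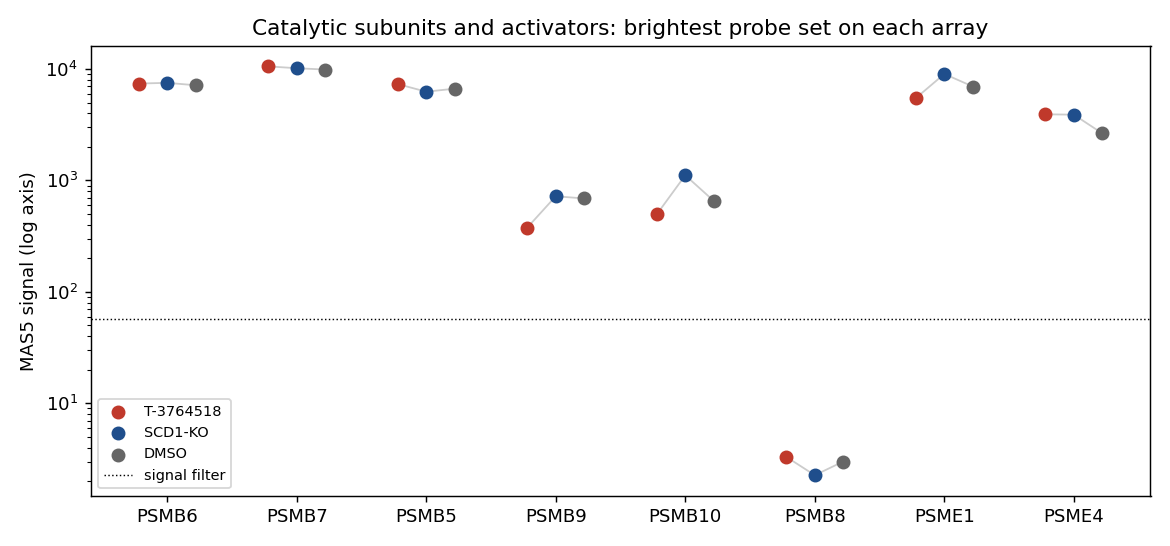
MAS5 signal (log axis) of the constitutive and immunoproteasome catalytic subunits and of the activator genes PSME1 and PSME4 on each of the 3 arrays, by the brightest probe set, with a dotted line at the signal filter. Within each gene the points of PSMB5, PSMB6 and PSMB7 lie close together, PSMB9 at 377.2 and PSMB10 at 496.2 are lowest under T-3764518, and PSMB8 lies under the filter.

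Comparing the inhibitor with the knockout directly, 0 of 40 were 1.5-fold higher under T-3764518, against 9.08% of all genes, and 5 of 40 were 1.5-fold lower, against 14.2%. The 5 were PSMA5, PSMB9, PSMB10, PSME1 and PSMG4. By brightest probe set they were PSMB9, PSMB10 and PSME1, 3 of 40 against 14.1% of all genes.

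PSME1, a subunit of the PA28 activator that opens the gate of the core and is raised by interferon, had signals of 5476 under T-3764518, 9024 in the SCD1-KO line and 6964 with DMSO. Relative to DMSO it was 1.27-fold lower under T-3764518 and 1.3-fold higher in the SCD1-KO line, and T-3764518 lay 1.65-fold under SCD1-KO. PSME4, the subunit of the PA200 activator, was on the same side in both states, with signals of 3922 under T-3764518, 3890 in the SCD1-KO line and 2642 with DMSO. Its median log2 ratio was 0.57 under T-3764518, over probe sets from 0.30 to 0.61, and 0.54 in the SCD1-KO line, over 0.23 to 0.56, just short of 1.5-fold in both. PSME3, which forms an activator of the nucleus, had probe sets from -0.65 to 0.65 and a median of 0.05 under T-3764518, and in the SCD1-KO line from -0.46 to 0.59 with a median of 0.33. PSMF1, an inhibitor of the core, was at -0.05 under T-3764518 and -0.14 in SCD1-KO.

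The rest of the alpha ring and the structural beta subunits moved little. The alpha ring had a median of -0.11 under T-3764518 and 0.11 in the SCD1-KO line over 6 genes, PSMA5 included. By brightest probe set the medians were 0.08 under T-3764518 and 0.04 in SCD1-KO. PSMA2 was at -0.23 under T-3764518 and -0.16 in SCD1-KO, and PSMA4 at -0.19 under T-3764518 and -0.09 in SCD1-KO. PSMA7 was at -0.01 under T-3764518 and 0.15 in SCD1-KO, and PSMA1 at 0.06 under T-3764518 and 0.09 in SCD1-KO. PSMA3 was at -0.03 under T-3764518 and 0.12 in SCD1-KO, its probe sets under T-3764518 at -0.26 and, on the brightest, 0.21. The structural beta subunits had medians of -0.04 under T-3764518 and 0.12 in SCD1-KO over 4 genes. PSMB3 was at -0.27 under T-3764518 and 0.02 in the SCD1-KO line, PSMB4 at -0.03 under T-3764518 and 0.27 in SCD1-KO, and PSMB1 at 0.18 under T-3764518 and 0.23 in SCD1-KO. PSMB2 was at -0.04 under T-3764518 and -0.15 in SCD1-KO, its probe sets in the SCD1-KO line running from -0.82 to 0.36. Without the immunoproteasome subunits, the 13 genes of the 20S core had medians of -0.03 under T-3764518 and 0.09 in SCD1-KO. Of the 13, 9 were in the brightest quintile. Within 0.32 of DMSO were 11 of 13 under T-3764518, against 57.2% of all genes and 69.5% of the brightest quintile. In the SCD1-KO line 12 of 13 were, against 54.5% of all genes and 65.9% of the brightest quintile. PSMA8, an alpha subunit typical of testis, had signals of 22.3 under T-3764518, 2.94 in SCD1-KO and 24.9 with DMSO, under the filter.

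In the 19S regulatory particle no gene was 1.5-fold away from DMSO in either state. Of all genes 6.62% were higher and 12.3% lower under T-3764518, and 9.95% and 11.4% in the SCD1-KO line. Of the 14 genes of the particle, 12 were in the brightest quintile. All 14 were within a log2 ratio of 0.32 of DMSO under T-3764518, against 57.2% of all genes and 69.5% of the brightest quintile. In the SCD1-KO line 8 of 14 were, against 54.5% of all genes and 65.9% of the brightest quintile. The medians of the 14 genes were 0.02 under T-3764518 and 0.07 in SCD1-KO. PSMD14, the deubiquitinase that removes ubiquitin from substrates, had signals of 9664 under T-3764518, 10175 in SCD1-KO and 7804 with DMSO, log2 ratios of 0.31 under T-3764518 and 0.38 in SCD1-KO. PSMD4, a ubiquitin receptor, had signals of 6568 under T-3764518, 4939 in the SCD1-KO line and 6618 with DMSO. It was 1.38-fold lower in the SCD1-KO line, and its 3 probe sets lay close together at log2 ratios from -0.5 to -0.42, while T-3764518 left it at 0.04. PSMD6, a structural lid subunit, had 5714 under T-3764518, 7756 in SCD1-KO and 5825 with DMSO, which put SCD1-KO cells at 0.41 and T-3764518 at -0.03. PSMD2, a scaffold of the base, was at -0.29 under T-3764518 and -0.07 in the SCD1-KO line, and PSMD11, a lid subunit, at -0.06 under T-3764518 and -0.33 in SCD1-KO with its probe sets in the SCD1-KO line from -0.85 to 0.18. Among the ATPases, PSMC1 had 6356 under T-3764518, 7435 in SCD1-KO and 5657 with DMSO, at 0.17 under T-3764518 and 0.39 in SCD1-KO, and PSMC4 had 2919 under T-3764518, 3383 in SCD1-KO and 2621 with DMSO, at 0.16 under T-3764518 and 0.37 in SCD1-KO. PSMC2 was at -0.09 under T-3764518 and 0.07 in SCD1-KO by the median but at 0.42 under T-3764518 and 0.39 in SCD1-KO on its brightest probe set, and PSMC3 was at -0.19 under T-3764518 and 0.00 in SCD1-KO. The other 19S genes were PSMC6 at 0.04 under T-3764518 and -0.04 in SCD1-KO, PSMD1 at 0.13 under T-3764518 and 0.15 in SCD1-KO, PSMD3 at 0.00 under T-3764518 and 0.17 in SCD1-KO, PSMD8 at 0.01 under T-3764518 and -0.19 in SCD1-KO, and PSMD12 at 0.04 under T-3764518 and 0.07 in SCD1-KO. The PSMD12 probe sets lay on both sides of 0, with the brightest at 0.27 under T-3764518 and 0.28 in SCD1-KO.

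**Figure D3:**
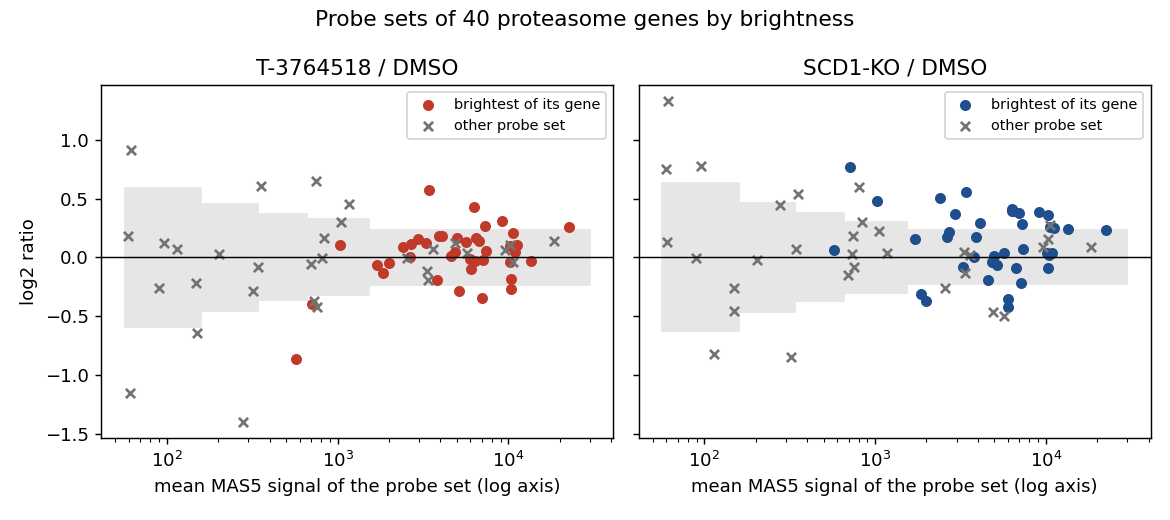
Log2 ratio to DMSO of each kept probe set of the 40 members against its mean MAS5 signal (log axis), for T-3764518 and SCD1-KO cells, with dots for the brightest probe set of a gene, crosses for the others and a grey band of 1 SD between probe sets of a gene in each quintile of signal. The band narrows with brightness, and the ratios beyond -1 or 1 belong to crosses at low signal, such as the PSMA5 probe set at -1.40.

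Of the 3 chaperones of the 19S particle, none was 1.5-fold away from DMSO. Of all genes 6.62% were higher and 12.3% lower under T-3764518, and 9.95% and 11.4% in the SCD1-KO line. A count over 3 genes is not read as a result about the chaperones. PSMD5 had signals of 2123 under T-3764518, 1694 in the SCD1-KO line and 2195 with DMSO, log2 ratios of -0.05 under T-3764518 and -0.37 in SCD1-KO. PSMD9 was at 0.12 under T-3764518 and 0.50 in SCD1-KO, its probe sets in the SCD1-KO line at 0.22 and 0.78, and PSMD10 at 0.08 under T-3764518 and -0.12 in SCD1-KO. Among the chaperones of the 20S core, PSMG3 had 2229 under T-3764518, 2980 in SCD1-KO and 2095 with DMSO, log2 ratios of 0.09 under T-3764518 and 0.51 in SCD1-KO, while PSMG1 was at 0.12 under T-3764518 and -0.08 in SCD1-KO and PSMG2 at -0.02 under T-3764518 and -0.21 in SCD1-KO.

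The members that share only the name were lower under T-3764518 in all 4 tested cases at the deposited scaling, where 7270 of all 12321 genes were at or below 0. Of the 3 with more than 1 kept probe set, 2 had probe sets on both sides of 0 under T-3764518. PSMA3-AS1, a transcript antisense to PSMA3, was at -0.55 under T-3764518, over probe sets from -0.96 to 0.04, and at 0.18 in the SCD1-KO line. The strand its probes read was not examined. PSMC3IP, a cofactor of meiotic recombination, was at -0.51 under T-3764518 and -0.13 in SCD1-KO, PSMD14-DT, a divergent transcript, at -0.42 under T-3764518 and -0.26 in SCD1-KO, and PSME3IP1, a partner of PSME3, at -0.16 under T-3764518 and 0.24 in SCD1-KO. The probe sets of PSME3IP1 ran from -0.29 to 0.94 under T-3764518. Under the filter were PSMB8-AS1 at signals of 33.0 under T-3764518, 52.1 in SCD1-KO and 31.6 with DMSO, PSMD6-AS2 at 28.6 under T-3764518, 42.9 in SCD1-KO and 36.7 with DMSO, PSMD7-DT at 5.80 under T-3764518, 19.9 in SCD1-KO and 5.10 with DMSO, and PSMG3-AS1 at 19.9 under T-3764518, 72.7 in SCD1-KO and 87.6 with DMSO.

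Genes that work with the proteasome were read from 4 lists. Among 11 subunits and regulators outside the name family, AKIRIN2, which carries proteasomes into the nucleus, was 1.5-fold higher under T-3764518 at a log2 ratio of 0.60. It was the only call of that list there, where 6.62% of all genes were higher and 12.3% lower. The AKIRIN2 probe sets ran from 0.46 to 0.73, with the brightest at 0.46, short of 1.5-fold. ECPAS, at a median of 0.03, was at 0.62 on its brightest probe set. The list had 1 gene higher and 2 lower in the SCD1-KO line, against 9.95% and 11.4% of all genes. In the SCD1-KO line UCHL5, a deubiquitinase of the 19S cap, had a signal of 1381, against 3068 with DMSO, and was 2.35-fold lower, with probe sets from -1.58 to -1.15. ADRM1, the receptor that anchors UCHL5, was 1.52-fold higher in the same cells, only just over the cut, and PAAF1, a 19S chaperone, 1.88-fold lower. ADRM1 and PAAF1 were each read by 1 kept probe set. Ubiquitin and delivery genes had 6 tested members, 1 of them 1.5-fold lower under T-3764518, against 12.3% of all genes. In the SCD1-KO line 0 of the 6 were called, where 9.95% of all genes were higher and 11.4% lower. In this list UBQLN4, a shuttle to the proteasome, was at -1.18 under T-3764518 over probe sets from -1.86 to -0.5. The brightest of them was at -0.5, short of 1.5-fold. UBA1, the ubiquitin-activating enzyme, was the farthest in the SCD1-KO line at -0.35, over probe sets from -0.84 to 0.15.

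NFE2L1 itself had signals of 6602 under T-3764518, 4814 in the SCD1-KO line and 4022 with DMSO, and its log2 ratio was 0.96 under T-3764518, over probe sets from 0.71 to 1.06, and 0.43 in the SCD1-KO line, over 0.26 to 0.93. NPLOC4, a cofactor of VCP, was at 0.58 under T-3764518 and 0.81 in SCD1-KO, VCP, which extracts NFE2L1 from the membrane, at 0.42 under T-3764518 and 0.62 in SCD1-KO, and the related factor NFE2L2 at 0.59 under T-3764518 and -0.07 in SCD1-KO. The median of the 6 tested genes of this pathway was 0.50 under T-3764518 and 0.31 in the SCD1-KO line, while the subunit median was 0.00 and 0.08. Under T-3764518, 2 of the 6 were 1.5-fold higher, NFE2L1 and NFE2L2, against 6.62% of all genes, and in the SCD1-KO line 2 of 6, VCP and NPLOC4, against 9.95%, with 0 lower in either state. NFE2L2 was only just over the cut, with probe sets from 0.18 to 0.70 under T-3764518 and from -0.72 to 0.28 in SCD1-KO. VCP ran from 0.51 to 0.73 in SCD1-KO, with the brightest at 0.51, short of 1.5-fold. NPLOC4 was read by 1 kept probe set. A level of mRNA does not show whether NFE2L1 protein was cut and active.

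Regulators of the immunoproteasome and peptide loading had a median log2 ratio of T-3764518 over SCD1-KO of -0.62 over 6 tested genes, and 3 of 6 were at least 1.5-fold lower, against 14.2% of all genes. The gene medians of all 6 were under 0, but ERAP1 had probe sets from -1.09 to 0.46 and lay at 0.46 on its brightest. NLRC5, which raises MHC class I genes, was 2.56-fold lower under T-3764518 at signals of 71.6 under T-3764518, 143.1 in SCD1-KO and 183.2 with DMSO. Its signal under T-3764518 was near the filter of 56.6. NLRC5 and TAP1 were each read by 1 kept probe set. TAP1, which moves peptides into the endoplasmic reticulum, was at -0.40 under T-3764518 and 0.26 in SCD1-KO, TAP2 at 0.13 under T-3764518 and 0.70 in SCD1-KO, TAPBP at -0.37 under T-3764518 and 0.45 in SCD1-KO, ERAP1, which trims the peptides, at 0.66 under T-3764518 and 0.98 in SCD1-KO, and IRF1 at 0.32 under T-3764518 and 0.58 in SCD1-KO. Against DMSO, 1 of the 6 was 1.5-fold higher under T-3764518, ERAP1, where 6.62% of all genes were, and 1 lower, NLRC5, where 12.3% were. In the SCD1-KO line 2 were higher, ERAP1 and TAP2, against 9.95%, and 0 lower, against 11.4%. There the ERAP1 probe sets ran from 0.21 to 1.11, with the brightest at 0.21, short of 1.5-fold. Those of TAP2 ran from 0.30 to 1.16 in the SCD1-KO line, with the brightest at 0.70, and from -0.60 to 0.81 under T-3764518. TAP2, PSMB8, TAP1 and PSMB9 are consecutive protein-coding genes in RefSeq.

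**Figure D4:**
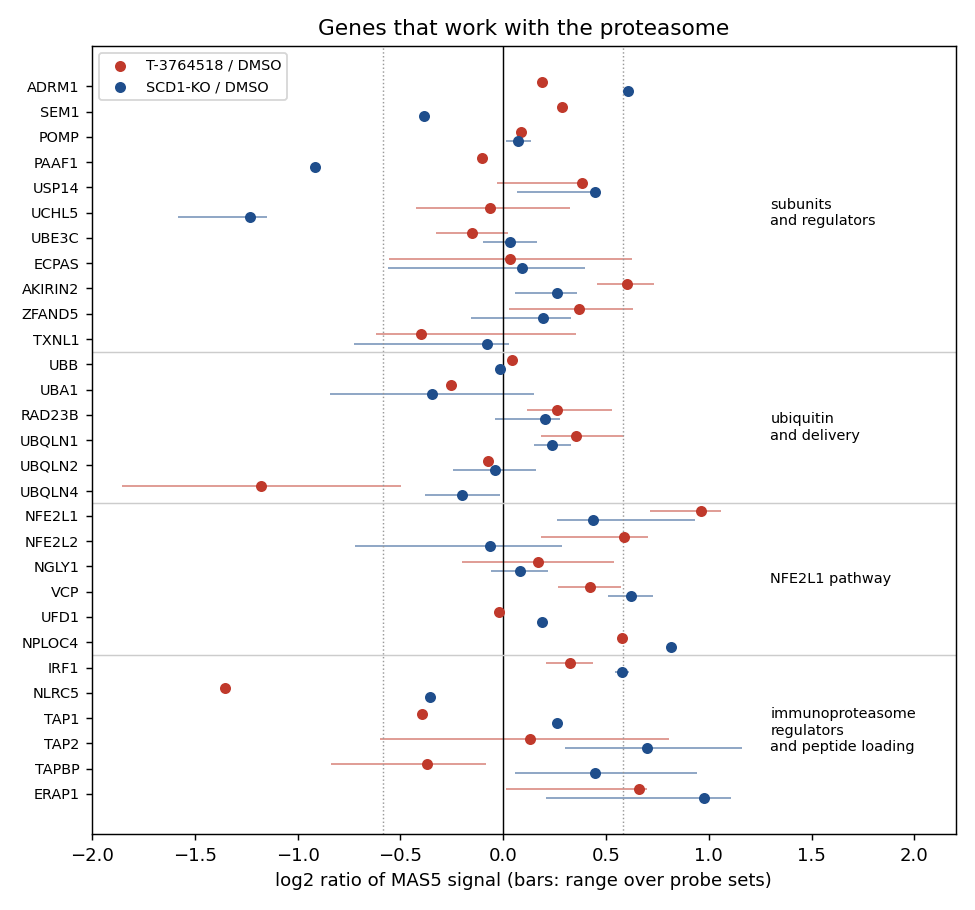
Log2 ratio to DMSO of the partner genes (rows, by list) for T-3764518 and SCD1-KO cells, with bars spanning the probe sets of each gene. NFE2L1 lies at 0.96 under T-3764518 and 0.43 in the SCD1-KO line, and UCHL5 lies lowest in the SCD1-KO line at -1.23.

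The motif counts were set beside all 27305 promoters. Of 34 subunits with a promoter in the table, 12 held TGACNNNGC, or 35.3%, against 13.6% of all promoters. The median log2 ratio of those with it was 0.02 under T-3764518 and 0.11 in the SCD1-KO line, and of those without it -0.04 under T-3764518 and 0.04 in SCD1-KO. PSMB9, PSME1, PSME4 and PSMD12, whose TGACNNNGC windows are printed above, had log2 ratios under T-3764518 of -0.87, -0.35, 0.57 and 0.04. The value for PSMD12 is the median of 0.27 on its brightest probe set and -0.19 on the other. GAAANNGAA was in 6, or 17.6%, against 8.29%. Members with it had a median of -0.27 under T-3764518 and 0.21 in SCD1-KO, and those without it 0.00 under T-3764518 and 0.04 in SCD1-KO. CCAAT was in 16, or 47.1%, against 35.7%, with medians of -0.03 under T-3764518 and 0.04 in SCD1-KO for members that held it, and -0.03 under T-3764518 and 0.11 in SCD1-KO for those that did not. The fourth, the gamma-interferon motif TTCNNNGAA, was in 4, or 11.8%, against 7.88%, with medians of 0.02 under T-3764518 and 0.25 in SCD1-KO where held, and -0.03 under T-3764518 and 0.07 in SCD1-KO where not. The 6 with GAAANNGAA were PSMA4, PSMB4, PSMB10, PSMC2, PSME1 and PSMG4. On their brightest probe sets under T-3764518 they were at -0.19, -0.03, -0.40, 0.42, -0.35 and -0.07, in that order. The value of -0.61 for PSMG4, which enters the median of -0.27, rested on its dim probe set. The part of the motif in these values was not tested. Both strands were searched, matches of different motifs may overlap, and a match describes letters only.

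SCD, the targeted gene, was at signals of 39350 under T-3764518, 24119 in the SCD1-KO line and 23841 with DMSO on its brightest probe set, and its other 3 probe sets were above DMSO in both states. Its transcript thus gives no check of the knockout, since where the deletion lies relative to the probes was not examined. HCT-116 is of colon epithelial origin, and KRT8 and KRT18 were bright on all arrays, at 12342 under T-3764518, 15723 in SCD1-KO and 12259 with DMSO and at 25877 under T-3764518, 28120 in SCD1-KO and 23407 with DMSO. CDX2 and VIL1 were dim, at 60.9 under T-3764518, 115.1 in SCD1-KO and 59.6 with DMSO and at 68.5 under T-3764518, 85.8 in SCD1-KO and 72.3 with DMSO. EPCAM and CDH1 were lower in the SCD1-KO line, with EPCAM at 17224 under T-3764518, 6840 in the SCD1-KO line and 16859 with DMSO, and CDH1 at 6686 under T-3764518, 1285 in SCD1-KO and 5038 with DMSO. Leukocyte markers summed to 277.4 under T-3764518, 144.0 in SCD1-KO and 333.4 with DMSO over 4 genes, 2 of them over the filter, with PTPRC at 1.5 under T-3764518, 20.7 in SCD1-KO and 24.5 with DMSO. Fibroblast markers summed to 1513 under T-3764518, 1212 in SCD1-KO and 1215 with DMSO. Most of that sum was COL1A1, at 1409 under T-3764518, 1090 in SCD1-KO and 1128 with DMSO. COL1A2 had no kept probe set, and DCN was dim, at 46.1 under T-3764518, 78.3 in SCD1-KO and 81.9 with DMSO. The part of these markers in the proteasome values was not tested. All samples were cultures of the HCT-116 line, so the sums are not read as amounts of leukocytes or fibroblasts. Because the RNA was bulk, a change in a part of the cells and a change in every cell cannot be told apart.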

How the data were processed

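The members and lists were chosen with earlier results of these data known. Total RNA of 3 HCT-116 samples was hybridised to U133 Plus 2.0 arrays. For each probe set the authors deposited a linear signal intensity, made with MAS5 according to the submitters' processing notes, with its version not given in the sources read. The trimmed mean was 500.1 on each array, and the median signal 56.7 under T-3764518, 62.4 in the SCD1-KO line and 68.8 with DMSO. Everything else was computed here in Python 3.11.15 with numpy 2.4.6, pandas 2.3.3, statsmodels 0.14.6 and matplotlib 3.10.9.

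Signals were taken to log2, probe sets under the median of the mean log2 signal were dropped, and the kept probe sets of a gene were summarised by their median ratio. Probe sets naming several genes were not used, so PSMA6 and PSME2 and some other subunits are not analysed here. Named were the catalytic subunits, the 4 members per class farthest from 0 in either ratio, members called at 1.5-fold, members under the filter or sharing only the name, and called partners, up to 4 per list, ratio and direction. All other members were added after their values were seen. Gene symbols of the 40 members matched RefSeq. The scripts were tested on simulated data. Alternatives were other normalizations, filters, an offset of 16.5, a floor and other probe set choices.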

Additional observations from a re-analysis of the deposited data

Results flagged for a closer look

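For 4 genes a 1.5-fold difference in at least 1 state stood against a value on the other side of 0 in the other state, and the difference between the states was not tested, since each had 1 array. PSMB9 was at a log2 ratio of -0.87 under T-3764518 and 0.066 in the SCD1-KO line, and PSMB10 at -0.40 under T-3764518 and 0.77 in SCD1-KO. PSMA5 was at -0.64 under T-3764518 and 0.24 in SCD1-KO, and PSMG4 at -0.61 under T-3764518 and 0.14 in SCD1-KO, where the lower values came from their dim probe sets.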

How the results depend on the processing

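No paired analysis was possible because each condition had 1 array, and for the same reason leaving out an array was not run. Across all alternatives, 430 of the values for counts and lists stayed within 1.5-fold or within the SD of a gene's probe sets, and 42 did not. For single genes 2016 values stayed within that SD, 104 moved by more, and in 7 a gene at least 1.5-fold apart as reported changed sign. Counting small ratios too, 142 values of single genes lay on the other side of 0. The cause was not tested. Counts below are of tested members, for which the values as reported were 0 higher and 3 lower under T-3764518, 2 higher and 0 lower in the SCD1-KO line, and 0 higher and 6 lower for T-3764518 over SCD1-KO.

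At 1.5-fold under T-3764518, 1 was higher under quantile normalization, 3 under scaling to 1 median and 1 under the lowess correction, and 1 was lower under scaling to 1 median, the lowess correction or a filter at percentile 75, and 6 with no filter. In the SCD1-KO line 5 were higher under scaling to 1 median, 4 with no filter and 1 under a filter at percentile 75, an offset, a floor or the brightest probe set, while 2 were lower with no filter and 2 without probe sets marked _s_at or _x_at. For T-3764518 over SCD1-KO, 1 was higher under scaling to 1 median, 2 with no filter and 1 without the marked probe sets, and 10 were lower with no filter and 3 under a filter at percentile 75 or the brightest probe set. At 2-fold, 2 were lower under T-3764518 with no filter and 1 without the marked probe sets, and in the SCD1-KO line 2 were higher and 2 lower with no filter. Apart from the brightest probe set, the share of all genes was not counted under these settings, so the counts describe the list only.

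Under scaling to 1 median, the medians under T-3764518 became 0.17 for the alpha ring, 0.42 for the constitutive catalytic subunits, 0.24 for the structural beta subunits, 0.25 for the 20S core, 0.32 for the ATPases, 0.29 for the non-ATPases, 0.30 for the 19S particle and 0.28 for all subunits. With members of 2 or more probe sets on 1 side of 0, they were 0.50 for the catalytic subunits, -0.61 for the 20S chaperones and 0.57 for the activators under T-3764518, and 0.68 for the catalytic subunits and 0.50 for the 19S chaperones in the SCD1-KO line. With no filter the immunoproteasome subunits in the SCD1-KO line were at 0.066 and the 19S chaperones at 0.50, and with the brightest probe set the ATPases were at 0.37. A filter at percentile 75 put the regulators of the immunoproteasome and peptide loading at 0.32 under T-3764518. PSMA5 turned to 0.13 under T-3764518 and to 0.093 for T-3764518 over SCD1-KO, and PSMA3-AS1 to 0.042 for T-3764518 over SCD1-KO, under a filter at percentile 75 or the brightest probe set, and PAAF1 turned to -0.030 for T-3764518 over SCD1-KO with no filter.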
